A study of Mus musculus with 6 samples.

Results

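Age differences were followed through 3 states of cultured mouse hepatic stellate cells, which store vitamin A beside the liver capillaries and turn into collagen-producing myofibroblasts on plastic. Of the 6 Affymetrix arrays of the series, 3 carried RNA of cells from old mice (6 to 9 months) and 3 that of young mice (8 to 11 weeks), so all 6 arrays enter the comparison. Each state had 1 old and 1 young array. Quiescent cells were freshly isolated and plated for 12 h. Activated cells were cultured for more than 20 days on uncoated plastic and received either the vehicle dimethyl sulfoxide or C-82 at 10 µM, and the latter arrays are called PRI-724 here after their labels. PRI-724 is converted to C-82, which keeps beta-catenin from its coactivator CBP. Every sample pooled cells of 5 mice. The labels give neither the strain nor the sex, the length of the C-82 exposure, or whether the 3 states of an age came from the same pool. If they did, the 3 pairs of arrays are not separate repeats of the age comparison. In either case standard errors and p-values measure only how far the age difference varies between the 3 states on these arrays. An age difference that changes with the state counts toward that error, which is not the error of repeated samples of a state.

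Interferons are secreted signals against virus. Their receptors activate transcription factors, STAT2 and IRF9 among them, which bind a short DNA element in front of many target genes, and IRF7 feeds the signal back onto interferon production. Resting liver cells keep a low tonic level of these targets. Stellate cells are also a source of chemokines that draw monocytes and neutrophils, and on activation they gain smooth muscle actin, fibrillar collagens and other matrix proteins.

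Values are log2 signals, so a difference of 1 unit is a 2-fold difference, and all differences are old minus young. A gene was represented by its brightest probe set, and 15526 genes had enough signal to be tested with limma on a model with age and state. Over the 3 pairs 41 genes were called higher in old cells (0.264% of the genes tested) and 39 were called lower (0.251%) at an adjusted p under 0.05, and 1615 genes had an unadjusted p under 0.05. All 80 called genes (0.515%) had the same sign in each of the 3 pairs. In a second description, without a test, 41 genes were at least 2-fold higher in old cells in every state (0.264%) and 33 were at least 2-fold lower in every state (0.213%). Of these, 33 and 29 were also called by limma. The counts were 38 and 46 after quantile normalization and 32 and 51 after cyclic loess. Without the PRI-724 pair 0 genes were called, although 1642 had an unadjusted p under 0.05. The direction of the 80 could not change there, since each had the same sign in every pair. The differences of Ifit1 and Hpx were then -4.05 and 3.64, against -3.41 and 3.49 over the 3 pairs. With array weights, which gave that pair the lowest weight (0.435), 222 genes were called. Without the quiescent pair 216 genes were called and without the vehicle pair 349, while 984 and 1570 had an unadjusted p under 0.05. Each fit with a pair left out has 1 residual degree of freedom in place of 2. Its count of calls is not like for like with the 80 and does not rank the pairs. After quantile normalization 12 genes were called, 4 higher and 8 lower, and after cyclic loess 2 higher and 5 lower. Those 12 were Zbp1, Irf7, Rtp4, Oas1g, Oasl2, Isg15, Xaf1 and Ifitm3 among the lower genes and Apob, Prss23, Mia2 and Epha2 among the higher ones, a set named after its values were seen. In 4 of the 41 called higher genes (Ambp, Mia2, Prg4 and Saa2) the young mean, and in 3 of the 39 called lower genes (H2af-ps2, Ifit3b and Mx2) the old mean, lay below the 4.70 log2 units of the signal filter. These 7 passed the filter through the other age alone, and their differences are measured against a dim signal.

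The young PRI-724 array stood apart. Its tested genes spanned 1.71 log2 units between the quartiles, and those of the other 5 arrays 2.11 to 2.43. The median age difference over all tested genes was 0.03 in quiescent cells, 0.01 in vehicle and 0.17 in PRI-724. In the PRI-724 pair the median was -0.30 for the dimmest 25% of genes and 0.41 for the brightest 25%, and after quantile normalization these became -0.10 and 0.02. Bright genes therefore read higher and dim genes lower in old PRI-724 cells as deposited. List medians of that pair are given below with the value after quantile normalization where the difference matters. Readings and differences of single genes, summed signals and list levels in that pair are as deposited. Counts of genes with the same sign in every state are as deposited too. The share of all genes set beside them pools dim and bright genes.

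**Figure D1:**
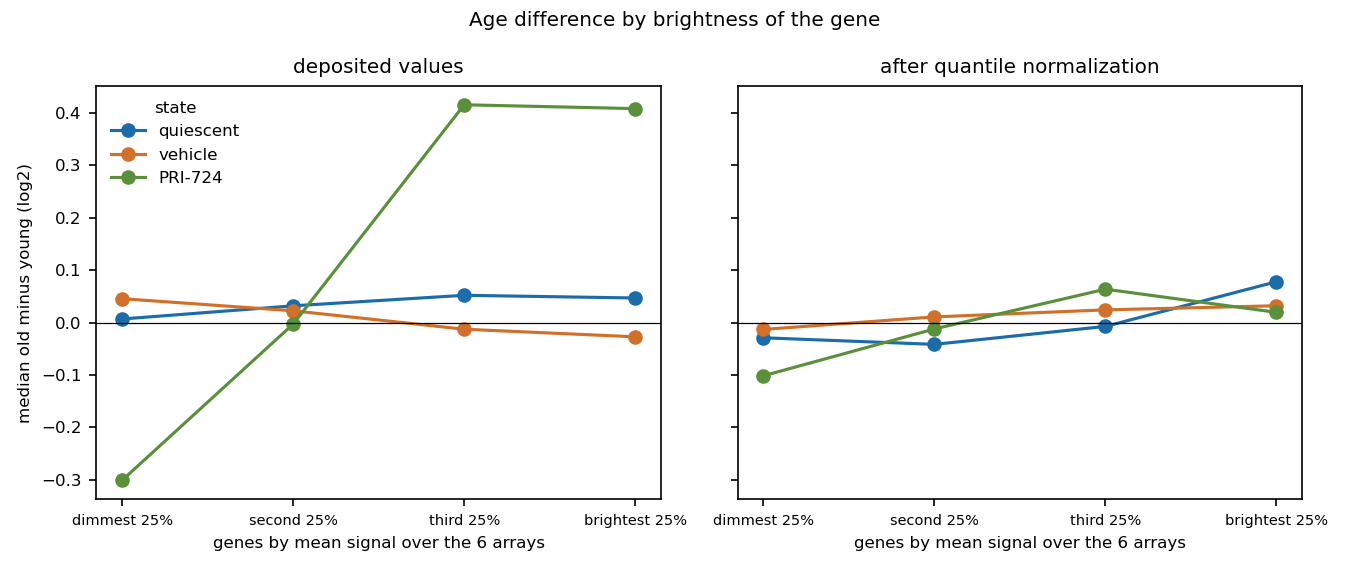
Median old minus young difference (log2, vertical axis) of the tested genes in 4 classes of mean signal (horizontal axis), 1 line for each state, on the deposited values and after quantile normalization. In the deposited values the PRI-724 line runs from -0.30 for the dimmest genes to 0.41 for the brightest, while the quiescent and vehicle lines stay near 0. After quantile normalization the PRI-724 line lies between -0.10 and 0.06.

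Of the 33 genes that were 2-fold lower in old cells in every state, 11 belonged to a list of interferon-stimulated genes, and several promoters carried the letters of the element through which interferons act. The windows below are the 250 bases before the annotated gene start, from RefSeq (GRCm38.p6), and show where matches to the core of the interferon-stimulated response element, GAAA, any pair of bases and GAAA on either strand, lie in 5 of the genes that fell. Capitals mark the matched bases, read on the strand of the gene, and each window runs 5′ to 3′. Ifit1 encodes an antiviral RNA-binding protein (chr19:34640639-34640888, plus strand), Rsad2 encodes viperin (chr12:26456453-26456702, minus strand), Oas1g a 2′-5′ oligoadenylate synthetase (chr5:120887614-120887863, minus strand), Gbp3 a guanylate-binding GTPase (chr3:142559794-142560043, plus strand) and Mndal a nuclear protein of the Ifi200 family (chr1:173879959-173880208, minus strand).
Ifit1: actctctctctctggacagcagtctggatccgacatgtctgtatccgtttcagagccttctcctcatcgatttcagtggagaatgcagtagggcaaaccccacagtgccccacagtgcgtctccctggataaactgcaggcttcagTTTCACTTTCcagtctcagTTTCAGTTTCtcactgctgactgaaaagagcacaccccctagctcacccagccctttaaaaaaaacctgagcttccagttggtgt
Rsad2: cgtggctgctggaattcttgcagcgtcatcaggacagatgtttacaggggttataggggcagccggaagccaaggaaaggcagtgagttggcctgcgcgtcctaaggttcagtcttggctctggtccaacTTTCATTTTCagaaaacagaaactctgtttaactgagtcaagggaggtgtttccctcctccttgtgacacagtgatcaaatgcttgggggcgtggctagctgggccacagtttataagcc
Oas1g: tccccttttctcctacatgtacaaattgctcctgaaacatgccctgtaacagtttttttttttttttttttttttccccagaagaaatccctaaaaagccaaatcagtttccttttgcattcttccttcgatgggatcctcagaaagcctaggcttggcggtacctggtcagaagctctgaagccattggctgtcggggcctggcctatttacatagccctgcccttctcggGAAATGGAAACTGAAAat
Gbp3: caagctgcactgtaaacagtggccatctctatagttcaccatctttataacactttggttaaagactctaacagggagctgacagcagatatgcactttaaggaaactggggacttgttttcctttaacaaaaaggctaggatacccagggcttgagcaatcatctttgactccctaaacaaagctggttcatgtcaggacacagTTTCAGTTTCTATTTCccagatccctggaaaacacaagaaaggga
Mndal: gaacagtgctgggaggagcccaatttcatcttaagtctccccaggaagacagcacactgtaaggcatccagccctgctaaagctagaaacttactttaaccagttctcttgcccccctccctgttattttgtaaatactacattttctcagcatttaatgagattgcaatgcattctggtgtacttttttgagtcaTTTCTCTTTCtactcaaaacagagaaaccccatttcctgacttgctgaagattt

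In Ifit1 the matches began 104 and 85 bases before the start, in Rsad2 120, in Mndal 54, and in Gbp3 45 and 39 with overlap. In Oas1g they began 18 and 12 bases before the start and also overlapped. Windows from 250 bases before to 50 bases after the start were available for 21 of the 33 genes that were 2-fold lower in every state, and 12 of these (57.1%) held a match. Of all 12055 tested genes with a window, 421 (3.49%) held one. Of the 34 genes with a window that were 2-fold higher in every state, 0 held one, and of those lower in quiescent cells only 9 of 120 (7.5%) did. The windows of Irf7 and Oasl2 held no match to these letters. A match is a description of the sequence and was not tested as a binding site.

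The interferon-stimulated list held 22 tested genes, and 13 of them were called lower in old cells and 0 higher, beside 0.251% of all tested genes called lower. Its median age difference was -2.51 in quiescent cells, -1.86 in vehicle and -1.24 in PRI-724, the last being -1.51 after quantile normalization. In 19 of the 22 genes the difference was negative in every state, against 11.3% of all genes tested. At least 2-fold lower in every state were 11, against 0.213% of all genes. The mean log2 level of the list on the young arrays was 9.80 in quiescent cells, 8.64 in vehicle and 7.51 in PRI-724, and on the old arrays it was 7.22, 6.77 and 6.33. Every old array thus lay below all 3 young arrays, and the young level was lower in each successive state while the old level moved less. Without the PRI-724 pair 0 of the 22 genes were called, after quantile normalization 6 and after cyclic loess 4, while 15 and 16 were then 2-fold lower in every state. The median of the 22 mean differences was -2.12 without that pair and -1.83 with it.

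Ifit1 read 11.04 in young and 6.50 in old quiescent cells, 9.21 and 5.64 in vehicle, and 7.46 and 5.32 in PRI-724. The highest old value lay below the lowest young value. The mean difference was -3.41 ± 0.39 (SE of the limma fit, n = 3 pairs, adjusted p = 0.0056), a 10.7-fold lower level in old cells. Irf7, the master transcription factor of interferon induction, read 11.14, 10.29 and 8.70 on the young quiescent, vehicle and PRI-724 arrays and 8.58, 7.30 and 6.82 on the old ones. Here too the ages did not overlap, and the gene fell by 2.48 ± 0.25 (limma, adjusted p = 0.0051). Zbp1, a sensor of left-handed nucleic acid that can start cell death, read 9.46, 9.20 and 7.25 in young cells and 6.44, 5.89 and 5.27 in old cells. It fell by 2.77 ± 0.28 (limma, adjusted p = 0.0051), and its difference was largest in vehicle, at -3.31. Zbp1 and Irf7 both kept an adjusted p of 0.0311 after quantile normalization, while that of Ifit1 became 0.0616.

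Rsad2, which makes a chain-terminating nucleotide, read 11.48, 8.44 and 6.93 in young cells and 7.63, 6.14 and 5.17 in old cells. The old quiescent array lay above the young PRI-724 array, so the ages overlapped across states but not within one. Rsad2 fell by 2.64 ± 0.36 (limma, adjusted p = 0.0172), and Mx2, an antiviral dynamin-like GTPase, fell by 2.84 ± 0.48 (adjusted p = 0.0409). Isg15, a ubiquitin-like modifier, read 10.17, 9.12 and 8.55 in young and 7.95, 7.12 and 6.77 in old cells. Its difference was of similar size in the 3 states, at -2.22, -2.0 and -1.78, and it fell by 2.0 ± 0.22 (limma, adjusted p = 0.0056). Usp18, which removes Isg15 from proteins and dampens the receptor, fell by 2.16 ± 0.32, and Oasl2 by 2.44 ± 0.29. Rtp4 fell by 2.41 ± 0.26 and Xaf1, a promoter of apoptosis, by 1.96 ± 0.25. The transcription factor subunits Stat2 and Irf9 fell by 1.71 ± 0.30 and 1.43 ± 0.23 (limma, adjusted p = 0.0499 and 0.0318).

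Not every member behaved this way. Ifit2, a relative of Ifit1, differed by -2.31, -0.27 and 0.35 in quiescent, vehicle and PRI-724 cells. Oasl1 differed by -2.57, -1.57 and 0.03, and Ifit3 by -0.21, 0.03 and -1.64. Ifit3 and its close copy Ifit3b, which fell by 1.89 ± 0.28 (limma, adjusted p = 0.0236), share sequence, as do Oas1g and Oas1b and the members of the Ifi200 family, so signals of such copies are uncertain as separate genes. The old mean of Ifit3b was 3.92, below the signal filter. In the Ifi200 family of DNA sensors Ifi205, Ifi204 and Mndal fell by 2.97 ± 0.37, 2.87 ± 0.40 and 2.23 ± 0.35.

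The interferon-inducible GTPases, which attack the vacuoles of intracellular microbes and answer mainly to interferon gamma, had a steeper gradient over the states. Of 11 tested genes 1 was called lower (0.251% of all genes tested) and 0 higher, and 9 were lower in every state (11.3% of all genes). Their median difference was -3.78 in quiescent cells, -1.80 in vehicle and -0.44 in PRI-724 (-0.70 after quantile normalization). The list was 2-fold lower in old cells for 11 of 11 genes in the quiescent state, 10 in vehicle and 1 in PRI-724. The shares of all tested genes were 2.98%, 1.79% and 1.96%. In 10 of the 11 genes the difference shrank from quiescent to vehicle to PRI-724. The mean log2 level of the list was 9.04, 7.75 and 5.90 on the young arrays and 5.61, 6.00 and 5.44 on the old ones. The gradient thus followed the young level, while the old level was low in every state. How far a low signal bounded the difference in PRI-724 was not tested. The called gene was Gbp3, at 9.14, 7.83 and 6.17 in young and 5.34, 5.61 and 4.93 in old cells, which fell by 2.42 ± 0.40 (limma, adjusted p = 0.0328). Iigp1 read 11.15, 9.52 and 6.32 in young and 6.13, 6.59 and 5.55 in old cells, a mean difference of -2.91 ± 0.60 (limma, adjusted p = 0.0864). For Iigp1 the young PRI-724 array lay within the range of the old arrays, and for Gbp3 above it. Igtp and Irgm2 differed by -4.58 and -3.78 in quiescent cells and by -0.36 and -0.70 in PRI-724. Whether the age difference itself depends on the state has no test, since each state holds a single pair.

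**Figure D2:**
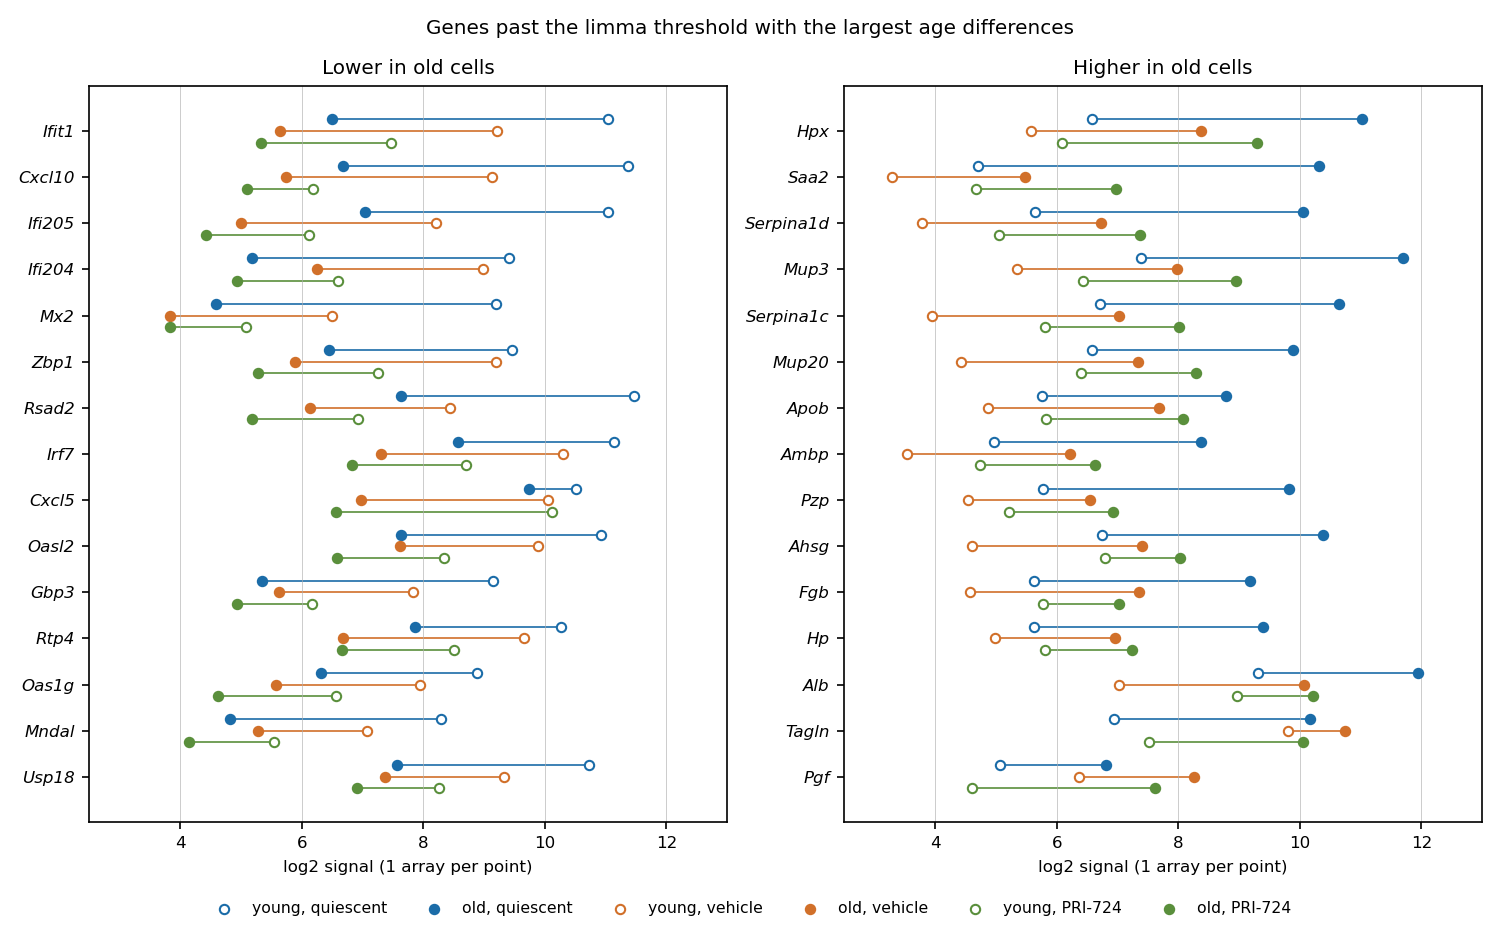
Log2 signal (horizontal axis) of the 15 called genes with the most negative and the 15 with the most positive mean difference, predicted genes such as Gm4951 (-3.46) left out. Each array has 1 point, open for young and filled for old, with a line joining the ages within a state. In all 30 genes the 3 lines run the same way by construction, since only genes with the same sign in every pair were picked. For Ifit1 the 3 old arrays (5.32 to 6.50) sit below the 3 young arrays (7.46 to 11.04), and for Hpx the old arrays (8.38 to 11.03) sit above the young ones (5.57 to 6.57).

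Antigen presentation by MHC class I, a set of interferon-responsive genes that show peptides to T cells, had 1 of 14 tested genes called lower and 0 higher. The list median was -1.13, -0.46 and -0.32 in quiescent, vehicle and PRI-724 cells (-0.44 in PRI-724 after quantile normalization). Of the 14 genes 8 were lower in every state, against 11.3% of all genes tested, and the called share of all genes was 0.251%. The called gene H2-K1, a classical heavy chain, read 11.18, 10.35 and 10.38 in young and 10.07, 9.14 and 9.53 in old cells, with no overlap, and fell by 1.06 ± 0.18 (limma, adjusted p = 0.0378). H2-Q5, a related heavy chain outside the list that was named after its values were seen, fell by 1.39 ± 0.22, and MHC heavy chains are similar enough in sequence to share probes. B2m, the shared light chain, differed by -0.44, -0.55 and -0.32 (limma, adjusted p = 0.123). The peptide transporters Tap1 and Tap2, the immunoproteasome subunit Psmb8 and Nlrc5, the transactivator of the class I genes, were at least 2-fold lower in quiescent cells and under 1.5-fold apart in the activated states. Of these, Nlrc5 had the largest quiescent difference, at -2.15.

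Chemokines followed with a different order of states. Of 31 genes of the chemokine and inflammation list 5 were called lower and 1 higher, beside 0.251% and 0.264% of all tested genes. In 18 the difference was negative in every state, against 11.3% of all genes, with medians of -0.65, -0.89 and -0.77. Cxcl10, an interferon-induced attractant of T cells, read 11.37, 9.13 and 6.18 in young and 6.68, 5.73 and 5.09 in old cells. Its difference shrank from -4.69 in quiescent cells to -1.09 in PRI-724, as in the interferon lists, and it fell by 3.06 ± 0.53 (limma, adjusted p = 0.0432). Cxcl5, an attractant of neutrophils, went the other way. It read 10.52 and 9.75 in young and old quiescent cells, 10.04 and 6.98 in vehicle, and 10.12 and 6.57 in PRI-724, so the young level held near 10 and the old level was low only after culture. The mean difference was -2.47 ± 0.44 (limma, adjusted p = 0.0499), just inside the threshold.

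Ccl2, the main monocyte attractant of stellate cells, read 12.32, 11.01 and 10.63 in young and 11.45, 9.10 and 8.44 in old cells and fell by 1.65 ± 0.24 (limma, adjusted p = 0.0216). Its neighbour Ccl7 fell by 1.66 ± 0.24. Nfkbia, the inhibitor and early target of NF-kappaB, fell by 1.01 ± 0.18 (limma, adjusted p = 0.0499). Cxcl1 showed the same order as Cxcl5, with differences of -0.57, -1.85 and -2.72, but was not called (adjusted p = 0.0862). Saa3 differed by 0.04, -3.52 and -3.17 and Lcn2 by 0.99, -3.30 and -1.30, with neither called. Ccl5 was 2-fold lower in every state, at -3.39, -1.53 and -1.06 (adjusted p = 0.0691). Osmr, the receptor of the cytokine oncostatin M and, like Fgf23 below, named after its values were seen, fell by nearly the same amount in each state, at -1.17, -1.02 and -1.15 (limma, adjusted p = 0.0328). None of the 5 chemokine list genes called lower kept its call after quantile normalization. Fgf23, a hormone that lowers blood phosphate, was 2-fold lower in every state at -4.82, -1.94 and -1.47 but not called (adjusted p = 0.0624).

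The largest differences in the other direction lay in genes of hepatocytes, the parenchymal cells of the liver that secrete most plasma proteins. Of 20 hepatocyte genes 7 were called higher in old cells and 0 lower, beside 0.264% of all tested genes called higher. Of the 20, 8 were 2-fold higher in every state, also against 0.264%. The list median was 3.0 in quiescent cells, 1.28 in vehicle and 0.78 in PRI-724 (0.55 after quantile normalization). Their summed linear signal was 1900.45, 753 and 1725 units on the young quiescent, vehicle and PRI-724 arrays and 17200.1, 3061 and 3756 on the old ones. The lowest old sum exceeded the highest young sum. Different numbers of hepatocytes in a sample and different RNA levels per cell cannot be told apart in such bulk measurements, and the part of residual hepatocytes was not tested. Without the PRI-724 pair or after cyclic loess 0 of the 20 were called, and after quantile normalization 1, Apob. The median of the 20 mean differences was 2.26 without that pair, 1.68 after cyclic loess and 1.66 after quantile normalization, against 1.75 as deposited.

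Alb, serum albumin, read 9.32 in young and 11.95 in old quiescent cells, 7.02 and 10.07 in vehicle, and 8.96 and 10.22 in PRI-724. The ages did not overlap, and the mean difference was 2.31 ± 0.31 (limma, adjusted p = 0.0154). Its window, shown because liver gene promoters commonly carry a site of the hepatocyte factor HNF1, spans chr5:90460620-90460869 on the plus strand, and the capitals mark a match to the 5′ part of that site, GTTAATNAT, beginning 32 bases before the start.
Alb: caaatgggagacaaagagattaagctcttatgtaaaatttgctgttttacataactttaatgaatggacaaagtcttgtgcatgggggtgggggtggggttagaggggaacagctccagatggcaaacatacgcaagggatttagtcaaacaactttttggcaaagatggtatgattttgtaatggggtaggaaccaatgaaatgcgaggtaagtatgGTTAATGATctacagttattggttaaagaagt

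Of the 34 genes with a window that were 2-fold higher in old cells in every state, 4 (11.8%) held this match, against 69 of 12055 tested genes (0.572%). It was also held by 1 of 21 genes lower in every state (4.76%) and by 4 of 120 lower in quiescent cells only (3.33%). The windows of Hpx, Saa2, Serpina1d, Serpina1c, Mup3, Apob, Ambp, Ahsg and Fgb held none. Hpx, hemopexin, the heme scavenger of plasma, read 6.57, 5.57 and 6.09 in young and 11.03, 8.38 and 9.30 in old cells. It had the largest mean rise of all called genes, 3.49 ± 0.31 (limma, adjusted p = 0.0051), or 11.3-fold. Apob, the protein of very low density lipoprotein, read 5.75, 4.87 and 5.82 in young and 8.79, 7.67 and 8.08 in old cells and rose by 2.70 ± 0.24 (limma, adjusted p = 0.0051). Saa2, an acute-phase apolipoprotein that is also the called higher gene of the chemokine and inflammation list, rose by 3.37 ± 0.54, with young arrays at 4.71, 3.28 and 4.66, near or below the signal filter. Other plasma protein genes that rose were Ambp (2.66 ± 0.28, from a young mean of 4.41), Pzp (2.59 ± 0.39), Ahsg (2.56 ± 0.39), Fgb (2.53 ± 0.37) and Hp (2.39 ± 0.38). Serpina1d and Serpina1c, which encode antitrypsin, and the major urinary protein genes Mup3 and Mup20 rose by 2.71 to 3.23. Both families hold copies similar in sequence, so the signals of these 4 genes may not be separate.

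Of the genes just named, Hpx, Saa2, Serpina1d, Mup20, Ambp and Pzp were not members of the hepatocyte list. Also outside it, the drug-metabolising enzyme Cyp1a2 rose by 2.14 ± 0.33, the bile canalicular transporter Abcc2 by 1.90 ± 0.27 and Rbp4, the plasma carrier of retinol, by 1.72 ± 0.28. Cyp1a2 and Abcc2 were named after their values were seen. The hepatocyte list was not uniform. Cyp2e1 differed by 4.23, -0.13 and 0.60, and Cps1, Pck1 and Ass1, enzymes of the urea cycle and of glucose synthesis, were lower in old PRI-724 cells at -0.69, -0.33 and -0.51. Scd1, a desaturase that makes monounsaturated fatty acids, read 5.49, 7.93 and 5.70 in young and 10.64, 9.07 and 8.21 in old cells. Its differences were 5.15, 1.14 and 2.5, and it was not called (limma, adjusted p = 0.0691).

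Other called higher genes encode contractile, matrix and membrane proteins. Of these, Tm4sf4, Prss23, Fat1 and Epha2 were named after their values were seen. Tagln, the actin-binding protein SM22 of smooth muscle and myofibroblasts, read 6.93, 9.81 and 7.51 in young and 10.17, 10.74 and 10.05 in old cells. Old cells held near the same level in each state, and Tagln rose by 2.23 ± 0.37 (limma, adjusted p = 0.0328). Pgf, placental growth factor, a ligand of the VEGF receptor Flt1, read 5.06, 6.36 and 4.60 in young and 6.81, 8.25 and 7.62 in old cells and rose by 2.22 ± 0.28. Tm4sf4 rose by 2.20 ± 0.25, the secreted protease gene Prss23 by 2.11 ± 0.24, the giant cadherin gene Fat1 by 2.0 ± 0.23 and the ephrin receptor gene Epha2 by 1.59 ± 0.22. The matrix glycoprotein genes Fn1 and Tnc, fibronectin and tenascin C, rose by 1.22 ± 0.21 and 1.34 ± 0.19 (limma, adjusted p = 0.0440 and 0.0192). Tnc read 9.69, 10.11 and 9.91 in young and 11.18, 11.74 and 10.80 in old cells, without overlap. Igf2r, the clearance receptor of IGF2, rose by 1.26 ± 0.22, and the cytokeratin gene Krt18 by 1.35 ± 0.22.

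The myofibroblast lists had their largest median difference in the PRI-724 pair. Of 25 matrix genes 2 were called (Fn1 and Tnc), beside 0.264% of all genes called higher. In 13 the difference was positive in every state, against 21.0% of all genes, with medians of 0.32, 0.25 and 1.34 (0.95 in PRI-724 after quantile normalization). Col1a1, the main collagen chain of scar, read 6.28, 8.85 and 6.08 in young and 6.92, 10.16 and 9.10 in old cells. Old cells under PRI-724 stood above young cells under vehicle, and the mean difference was 1.66 ± 0.39 (limma, adjusted p = 0.126). Acta2, smooth muscle actin, read 5.94, 9.73 and 7.0 in young and 6.97, 10.49 and 9.59 in old cells, a difference of 1.46 ± 0.34 (limma, adjusted p = 0.121). Postn, periostin, differed by -0.38, 0.91 and 3.05, and Lox, a collagen crosslinker, by 0.99, -1.68 and 2.25. Of 18 contractile genes Tagln alone was called, with list medians of 0.13, -0.19 and 0.73 (0.57 in PRI-724 after quantile normalization).

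Targets of YAP and TAZ, the coactivators that respond to cell stretch, were higher in every state in 12 of 14 genes, against 21.0% of all genes tested. The mean log2 level of this list was 8.23 in young and 9.19 in old PRI-724 cells, and bright genes read higher in that old array as deposited. Of the 14, 0 were called, beside 0.515% of all genes. Their medians were 0.63, 0.35 and 0.86 (0.55 in PRI-724 after quantile normalization). Ankrd1 differed most in quiescent cells, at 7.86 in young and 11.82 in old cells, and by 0.50 and 0.79 in vehicle and PRI-724. Of 16 genes of cholesterol synthesis 11 were higher in every state, again against 21.0%, and 0 were called. Their medians were 0.73, 0.27 and 0.61 (0.33 in PRI-724 after quantile normalization). The squalene synthase gene Fdft1 differed by 0.97, 0.44 and 1.02 (limma, adjusted p = 0.229).

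**Figure D3:**
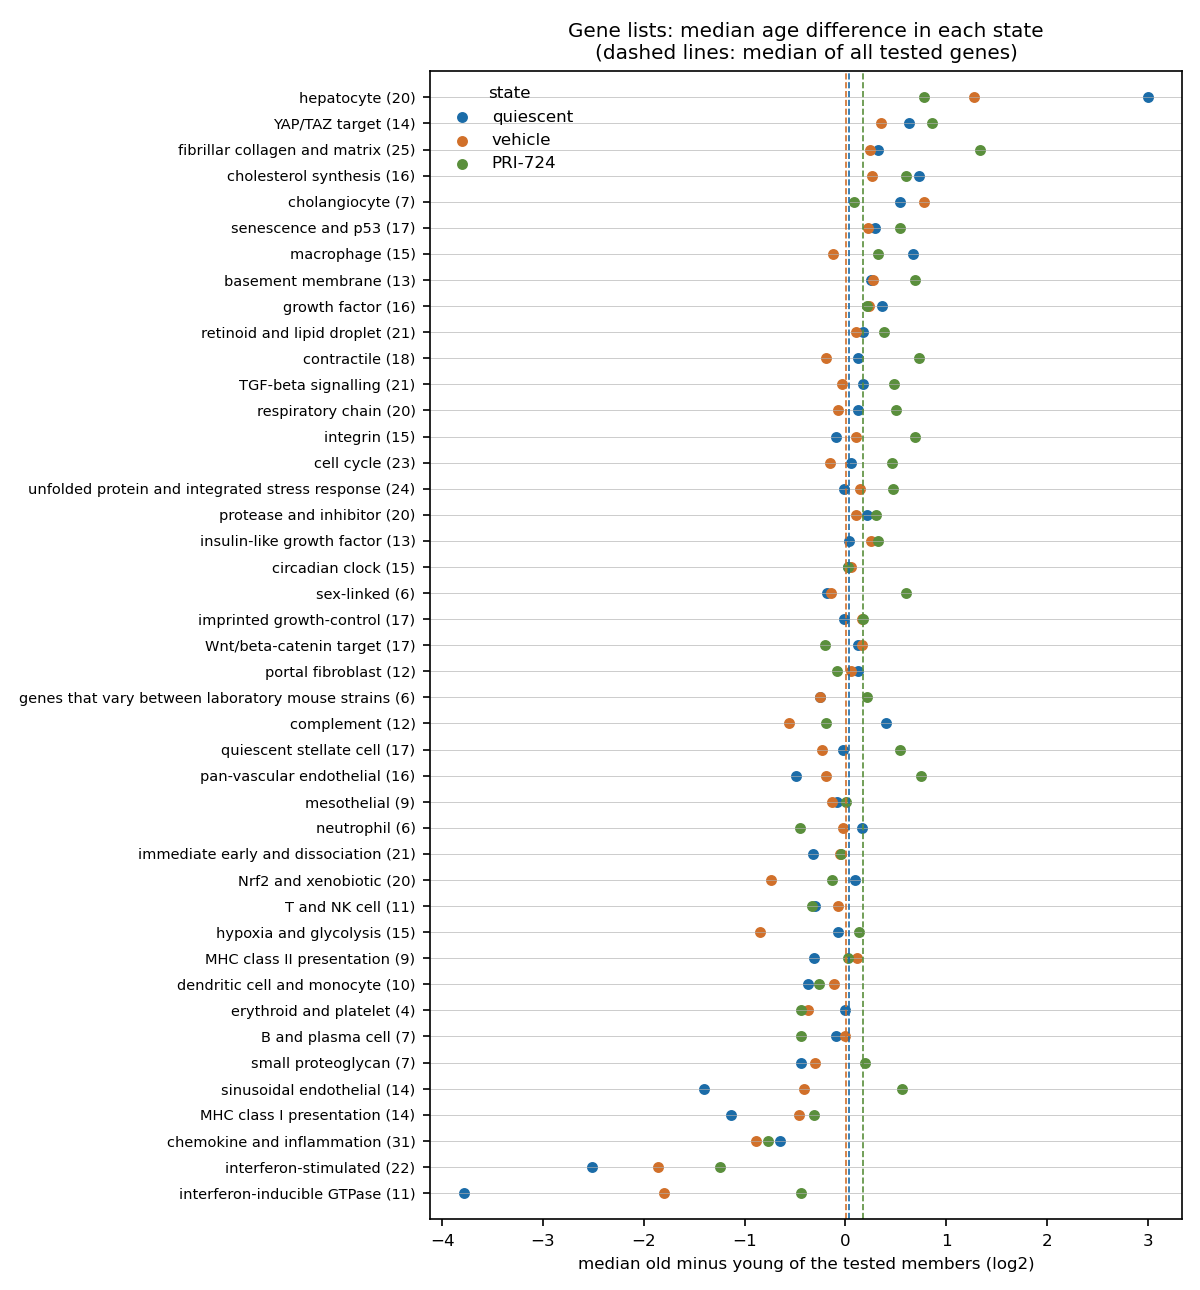
Median old minus young difference (log2, horizontal axis) of the tested members of 43 gene lists, numbers of tested members in parentheses, 1 point for each state, with dashed lines at the median of all tested genes. The interferon, MHC class I and chemokine lists lie left of all 3 dashed lines in every state, and the hepatocyte, YAP/TAZ and matrix lists lie right of them. The sinusoidal endothelial list runs from -1.40 in quiescent cells to 0.56 in PRI-724 (0.41 after quantile normalization).

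Genes often named in ageing were not called, and few genes of any kind were. Of 17 genes of senescence and the p53 response 0 were called, beside 0.515% of all tested genes. In 11 the difference was positive in every state, against 21.0% of all genes. The medians were 0.30, 0.22 and 0.54 (0.31 in PRI-724 after quantile normalization). Cdkn2a, which encodes the senescence marker p16, differed by 0.06 ± 0.21 (limma, adjusted p = 0.954) and read between 5.91 and 6.47 on the 6 arrays. Cdkn1a, which encodes p21, differed by 0.09 ± 0.14 and stood between 11.42 and 11.97. Cdkn2b, encoding p15, differed by 0.68, 0.45 and 0.54, and the p53 target Sesn2 by 0.95, 0.72 and 1.08 (limma, adjusted p = 0.420 and 0.118). Axin2, a readout of beta-catenin, differed by 0.12, -0.31 and -0.85, and 0 of 17 Wnt targets were called, beside the same 0.515%. Igf1, the liver growth factor, read 6.09 and 8.41 in young and old quiescent cells, but differed by -0.03 and 0.30 in the activated states.

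The arrays carried stellate markers at both ages together with markers of other liver cells. Lrat, which esterifies retinol, read from 5.57 to 8.15, Reln, the reelin gene, from 9.24 to 10.06, Ecm1 from 9.61 to 11.75 and Des, desmin, from 6.47 to 9.41. Of 17 quiescent stellate markers 0 were called, beside 0.515% of all tested genes. The list medians were -0.03, -0.24 and 0.54 (0.26 in PRI-724 after quantile normalization). The mean log2 level of this list was 7.48 in young and 7.35 in old quiescent cells. The sinusoidal endothelial list (9.43 and 8.00) and the macrophage list (8.25 and 8.91) stood above it there. In PRI-724 the stellate list read 7.37 and 7.80, above the endothelial (5.99 and 6.51) and macrophage lists (5.77 and 6.05). The share of each cell type was not measured. Sinusoidal endothelial markers, of the fenestrated lining of liver capillaries, summed to 16053 linear units in young and 5711 in old quiescent cells, 10769.5 and 8957 in vehicle, and 1297 and 2094 in PRI-724. Of the 14 markers 10 were 2-fold lower in old quiescent cells, against 2.98% of all tested genes, and 0 were called over the 3 states. Lyve1, a hyaluronan receptor, read 12.30 in young and 8.83 in old quiescent cells and 9.54 and 9.97 in vehicle. Macrophage markers summed to 6808 and 13533 in quiescent cells, 10214 and 9489.8 in vehicle, and 1411 and 2089 in PRI-724, with 0 of 15 called. The macrophage medians were 0.67, -0.13 and 0.32, and the last was 0.45 after quantile normalization and -0.12 after cyclic loess. The lower interferon genes thus sat beside lower endothelial and higher macrophage signal in old quiescent cells. The part of these cells in the age differences was not tested. Transcripts of the Y chromosome genes Kdm5d, Eif2s3y and Uty were present on all 6 arrays (5.19 to 7.76), and Xist read 3.21 to 3.61, below the signal filter.

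Across all 15526 tested genes the age differences of the 3 states, which come from different arrays, were loosely related. The correlation over genes was 0.41 between quiescent and vehicle, 0.22 between quiescent and PRI-724 and 0.16 between vehicle and PRI-724 (0.22 for the last after quantile normalization). Genes are not independent, so these are descriptions. The share of genes with the same sign was 59.0%, 55.5% and 50.1% in the same order.

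**Figure D4:**
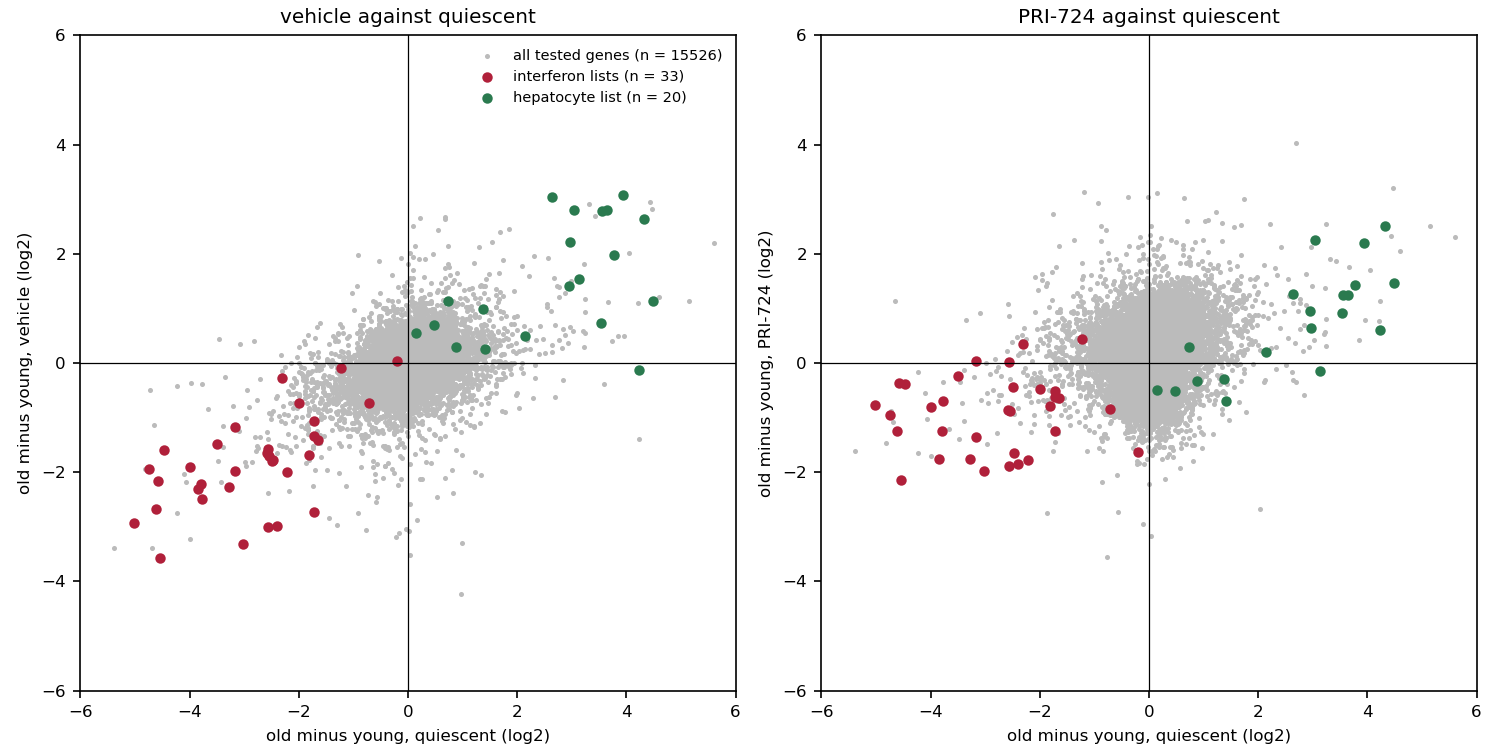
Old minus young difference (log2) of each tested gene in vehicle (left) or PRI-724 (right) against that in quiescent cells, with all 15526 tested genes in grey, the 33 genes of the 2 interferon lists in red and the 20 hepatocyte genes in green. Most red points lie in the lower left and most green points in the upper right of both panels, and in the right panel both groups lie closer to the horizontal axis. The grey clouds correlate at 0.41 and 0.22.

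Many large differences belonged to 1 state. Whatever the other states did, 491 genes (3.16%) were at least 2-fold higher and 463 (2.98%) at least 2-fold lower in old quiescent cells. In vehicle these counts were 179 (1.15%) and 278 (1.79%), and in PRI-724 848 (5.46%) and 304 (1.96%). At least 2-fold differences in any state were seen in 2086 genes, among them 281 that were 2-fold apart in the same direction in exactly 2 states. A gene was assigned to a single state when it was at least 2-fold apart there and under 1.5-fold apart in the other states. On that rule 160 genes were higher (1.03%) and 157 lower (1.01%) in old cells in the quiescent state only, 35 (0.225%) and 69 (0.444%) in vehicle only, and 393 (2.53%) and 198 (1.28%) in PRI-724 only. The last pair of counts became 231 and 344 after quantile normalization, so the balance of directions in that state depended on the scaling. Membership changed too. After quantile normalization 130 of the 160 and 122 of the 157 quiescent genes stayed in their class. In vehicle 13 of the 35 and 45 of the 69 stayed, and in PRI-724 171 of the 393 and 162 of the 198. After cyclic loess the PRI-724 classes kept 126 and 114 of their genes. A difference seen in a single pair of arrays has no replicate and no test.

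Of the 20 hepatocyte genes 1, Tat, was higher in quiescent cells only, beside 1.03% of all tested genes. Car3, carbonic anhydrase of muscle, fat and liver, read 4.95 in young and 8.80 in old cells and 4.73 to 5.26 in the activated states. Fgl1, Apoh, Plg and Crp, all encoding plasma proteins made in the liver, and Rgn, regucalcin, differed by 2.52 to 3.22. Among the genes lower in this state only, Trim30c, a member of an interferon-regulated family, read 8.26 and 4.03, Kcnj2, an inward-rectifier potassium channel, 7.43 and 3.65, and Sele, the adhesion molecule E-selectin of inflamed endothelium, 8.6 and 5.79. Mxd1, a partner of Max, and the protease gene Adamts9 differed by -2.72 and -2.32. Of the 14 sinusoidal endothelial markers 3 fell in this class (Lyve1, Oit3 and Bmp2), and of the 14 class I genes the 4 named above, beside 1.01% of all tested genes.

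In vehicle only, Cck, the hormone cholecystokinin, read 4.69 in young and 7.35 in old cells, and Grem1, a secreted inhibitor of bone morphogenetic proteins, 5.64 and 7.77. Klk8, Lce1h, Nup62cl and Wincr1 differed by 1.55 to 2.01. Among the genes lower in old vehicle cells, Serpina12, which encodes the adipokine vaspin, read 8.75 in young and 5.68 in old vehicle cells and 4.22 to 5.07 on the other 4 arrays. Rgs4, a brake on G protein signalling, read 7.95 and 4.90, Ggt5, which splits leukotriene C4, 7.78 and 4.59, and Glp2r, the receptor of glucagon-like peptide 2, 7.45 and 4.32. For each of these 4 the young vehicle array stood alone above the other 5. Of 15 genes of hypoxia and glycolysis 4 were in this class, beside 0.444% of all tested genes. They were the oxygen-sensing hydroxylase Egln3 (9.84 and 7.38), the kinase Pdk1 (7.51 and 5.98), the mitophagy receptor Bnip3 (8.38 and 6.87) and the phosphofructokinase Pfkl (9.67 and 8.66). Of 20 genes of the Nrf2 and xenobiotic response 9 were 2-fold lower in old vehicle cells whatever the other states did, against 1.79% of all genes.

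In PRI-724 only, Ckb, brain-type creatine kinase, read 6.84 in young and 9.96 in old cells, while it was 10.28 and 10.48 in vehicle. Plpp1, a lipid phosphatase, read 5.69 and 8.04, Ptprb, the endothelial phosphatase VE-PTP, 5.57 and 7.88, and Ogn, a small matrix proteoglycan, 4.54 and 6.76. For these 4 genes the young PRI-724 array lay below both vehicle arrays by over 2-fold. The cytokinesis gene Anln and the cytoskeletal gene Abracl differed by 2.21 each. Of 16 pan-vascular endothelial genes 4 were in this class (Cdh5, Pecam1, Robo4 and Tek), beside 2.53% of all tested genes. Of 23 cell cycle genes 4 were (Mcm6, Mcm4, Cdk1 and Top2a), and of 25 matrix genes 3 (Col3a1, Col6a1 and Loxl1). Cdh5, VE-cadherin, read 8.30 and 10.30 in PRI-724 and 11.76 and 11.87 in vehicle. These genes moved in the direction that bright genes took in this pair, and the share due to the narrow range of the young array was not tested. The lower genes of the class, Prrt2, Zfp972, Ifit3, Pla2g10os, Astx5 and Sly, differed by -1.80 to -1.53. Astx5 and Sly are testis genes of multicopy families on the sex chromosomes.

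**Figure D5:**
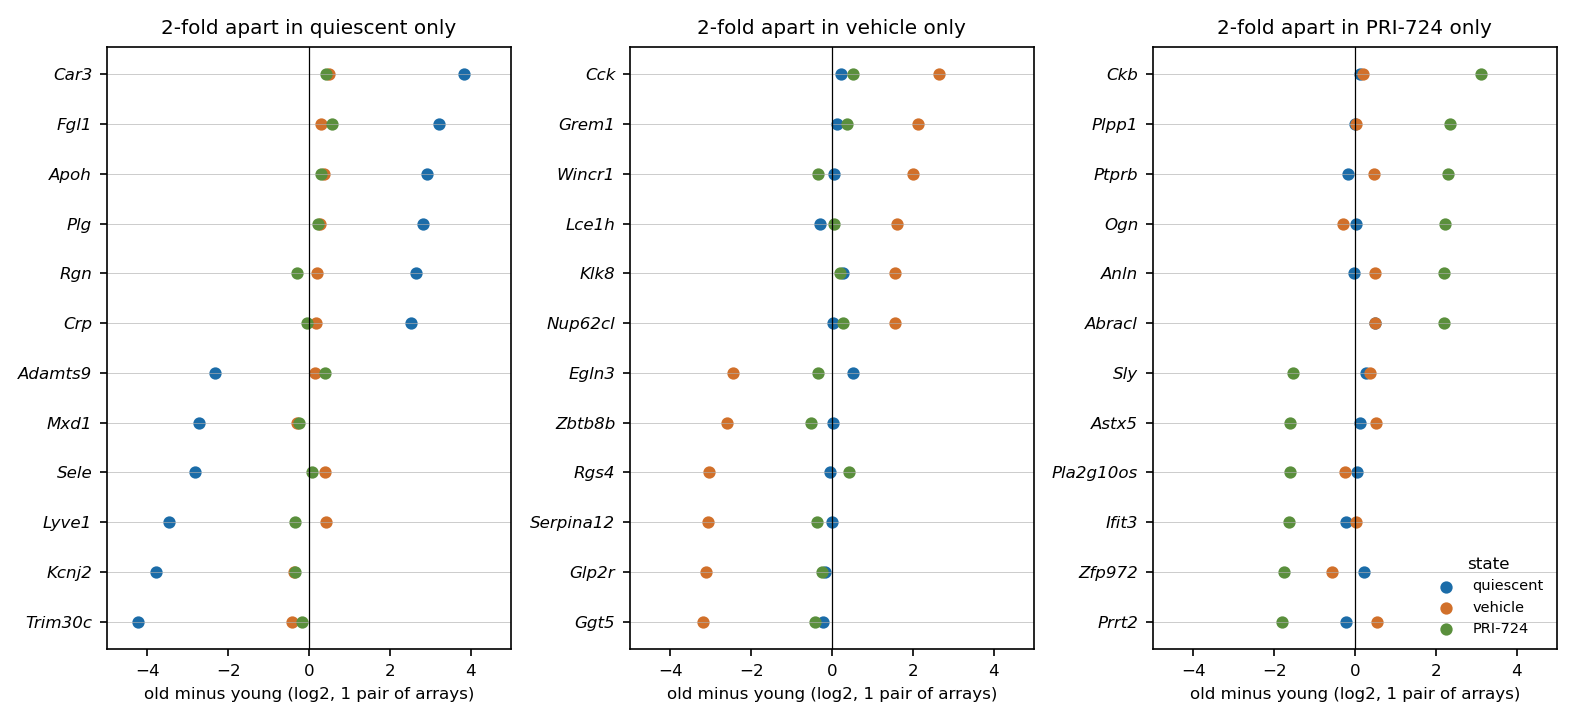
Old minus young difference (log2, horizontal axis) of the 6 most positive and the 6 most negative genes among those 2-fold apart in 1 state and under 1.5-fold apart in the others, 1 panel for each state, 1 point for each state's pair of arrays. The points of the other states gather near 0 by construction. The widest differences are -4.23 for Trim30c in quiescent cells, -3.19 for Ggt5 in vehicle and 3.12 for Ckb in PRI-724.

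In 48 genes (0.309%) the old cells were at least 2-fold higher in one state and at least 2-fold lower in another. Ifi209, an interferon-induced member of the Ifi200 family, read 9.24 and 4.60 in young and old quiescent cells, 6.31 and 5.17 in vehicle, and 3.61 and 4.75 in PRI-724. Ccl6, a chemokine of macrophages, read 6.23 and 10.46 in quiescent cells but 10.78 and 9.39 in vehicle. Serpinb2, an inhibitor of plasminogen activators, read 7.5 and 9.54 in quiescent cells and 12.03 and 9.36 in PRI-724. Adgrf5, an adhesion receptor of endothelium, read 10.71 and 8.95 in quiescent cells and 5.09 and 7.82 in PRI-724. Lox and Col14a1 of the matrix list were also in this class, both with old vehicle cells lower and old PRI-724 cells higher.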

How the data were processed

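Per the labels' protocols, RNeasy kits gave the RNA and the GeneChip WT PLUS kit the labelled target. The deposited values are log2 signals made by the authors with Affymetrix Expression Console and RMA, per the submitters' processing notes. The sources used here name no version. Of 41345 probe sets, 23521 had 1 gene symbol in the platform table, 1814 had several and 16010 had none. Only the first kind was used, with the brightest probe set for each of 22180 genes. The 30% of genes with the lowest mean were left out (mean log2 signal under 4.70).

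Ages were compared in R 4.3.3 with limma 3.58.1, with age and state as terms, an intensity trend, 2 residual and 7.76 prior degrees of freedom, and Benjamini-Hochberg adjustment over all 15526 genes. The SE is that of the moderated fit. The script was tested on simulated data. Named genes were the 15 called genes with the most positive and the 15 with the most negative mean difference, the 6 largest each way in each single-state class, the largest opposite differences, genes named in any case and list members. Predicted and unnamed genes, small RNA genes and histone genes were skipped. So were immunoglobulin and T cell receptor segments and olfactory, vomeronasal and trace amine receptor genes. Members and lists were chosen with earlier results of these data known. Promoter windows came from RefSeq, GRCm38.p6. Alternatives were other filters, probe-set means, no trend, no state term, quantile and cyclic loess normalization, array weights, other fold limits and each pair of arrays left out.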

Additional observations from a re-analysis of the deposited data

Results flagged for a closer look

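The genes Ifi209, Ccl6, Serpinb2 and Adgrf5 were marked because old and young cells stood in opposite order in different states, each on 1 pair of arrays a state, and the difference between states was not tested. For Ifi209 the age differences in PRI-724 and quiescent cells were 5.78 log2 units apart (1.13 and -4.65). For Ccl6 those in quiescent and vehicle cells were 5.62 apart (4.23 and -1.39). For Serpinb2 those in quiescent and PRI-724 cells were 4.71 apart (2.04 and -2.67), and for Adgrf5 those in PRI-724 and quiescent cells were 4.49 apart (2.73 and -1.76). Probe sets without a single gene name were not used above. Of 7487 probe sets without a gene and above the signal filter, 35 differed 2-fold or more with the same sign in all 3 states, 17 higher and 18 lower in old cells. Of 1459 that name several genes 6 were, 2 higher and 4 lower.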

How the results depend on the processing

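With 1 array in each group, precision is limited by the number of arrays, and signals near background bound the fold changes of dim genes. The counts of called genes depended most on the processing. Instead of 41 higher and 39 lower genes, limma called 0 and 0 without state in the model (581 had an unadjusted p under 0.05), 2 and 5 after cyclic loess, 4 and 8 after quantile normalization, and 108 and 114 with array weights. With 1 pair of arrays left out in turn the counts ranged from 0 to 229 higher and from 0 to 120 lower, the 0 in each case being without the PRI-724 pair. Those fits have 1 residual degree of freedom, so their counts are not like for like with the 41 and 39. The array weights were 1.66 for the quiescent, 1.39 for the vehicle and 0.435 for the PRI-724 pair. No called named gene changed direction in any of 11 alternatives, but most of these could not have reversed one. Each such gene had the same sign in every pair, so leaving out a pair kept its direction. Filter, trend and state settings leave the difference itself unchanged. For the genes 2-fold apart in every state, 41 higher and 33 lower, the counts were 168 and 86 at a 1.5-fold limit, 13 and 12 at a 3-fold limit, and 32 and 51 after cyclic loess. With 1 pair left out they ranged from 72 to 144 and from 39 to 117.

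The single-state counts (160 higher and 157 lower in quiescent, 35 and 69 in vehicle, 393 and 198 in PRI-724) followed their limits. With a tighter limit on the other states they were 57 and 41, 18 and 22, and 174 and 103. Under 2-fold there they were 308 and 313, 67 and 129, and 630 for PRI-724 higher. At a 3-fold limit they were 32 and 43, 4 and 18, and 34 and 15. Without a filter on signal the vehicle higher count was 103 and the PRI-724 lower count 312, and on the brighter 50% of genes 16 and 102. The PRI-724 counts were 188 higher after cyclic loess, and 231 higher and 344 lower after quantile normalization. The cause of the other changes was not tested. The fit already pairs the ages within each state over 3 pairs, and the labels give no replicate numbers for a further block.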
